A study of Mus musculus with 208 samples.

Results

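The MHC class II antigen presentation genes examined here were the 7 genes H2-Aa, H2-Ab1, H2-Eb1, H2-DMa, H2-DMb1, Cd74 and Ciita, read by all 11 probes that carry these symbols in the array annotation, of 25697 gene probes and 16593 gene symbols in all. H2-Ab1 had 4 probes, Cd74 had 2 and the other genes had 1 each. RNA of the left ventricle (LV) of female mice of the Hybrid Mouse Diversity Panel (HMDP) was measured on 208 Illumina arrays, of untreated control hearts or of hearts treated with isoproterenol (ISO), a beta-adrenergic agonist. ISO was given for 3 weeks at 30 ug/g body weight/day from 8 to 9 weeks of age, the samples are labeled as 10 weeks old, and the series text states a lower dose. The 93 control and 93 ISO strains, 87 of them in both conditions, were inbred lines without introduced alleles: classical inbred strains (27 control, 29 ISO) and the recombinant inbred (RI) families BXD (37 and 36), AXB/BXA (18 and 16), CXB (7 and 7) and BXH (4 and 5). Biological replicates of a strain were pooled for an array, per the study's methods, and most strains had 1 array per condition, so the errors below measure the spread between strains. The BXD lines descend from C57BL/6J and DBA/2J, AXB/BXA from A/J and C57BL/6J, BXH from C57BL/6J and C3H/HeJ, and CXB from BALB/cByJ and C57BL/6ByJ.

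MHC class II molecules are pairs of an alpha and a beta chain on the surface of antigen-presenting cells, where they show peptides from engulfed proteins to CD4+ T cells. H2-Aa and H2-Ab1 encode the alpha and beta chains of the mouse A molecule, and H2-Eb1 the beta chain of the E molecule. Cd74, the invariant chain, guides new class II pairs to the endosome, where the H2-DM dimer (H2-DMa and H2-DMb1) exchanges the remnant of the invariant chain for a peptide. Ciita is the coactivator that switches on this set of genes, and interferon-gamma is known to induce it. In heart tissue, class II molecules are known mainly from macrophages, dendritic cells and B cells.

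In the mouse reference GRCm38.p6, 5 of the 7 genes lie on chromosome 17 within 197 kb: H2-DMa at chr17:34119693-34139101, H2-DMb1 at chr17:34153191-34160229, H2-Ab1 at chr17:34263227-34269418, H2-Aa at chr17:34282744-34287823 and H2-Eb1 at chr17:34305867-34316674. RefSeq promoters (250 bases before to 50 after a gene start) were matched for 4 of the 7 genes. Those of H2-Aa, H2-Eb1 and H2-DMb1 are shown because they hold the pair of elements through which class II genes are known to be switched on together. Capitals mark GNAACT, the start of the X box bound by RFX, and GATTGG, the Y box bound by NF-Y, with 26 bases between them in H2-Aa, 25 in H2-Eb1 and 26 in H2-DMb1.
H2-Aa (chr17:34287774-34288073, minus strand): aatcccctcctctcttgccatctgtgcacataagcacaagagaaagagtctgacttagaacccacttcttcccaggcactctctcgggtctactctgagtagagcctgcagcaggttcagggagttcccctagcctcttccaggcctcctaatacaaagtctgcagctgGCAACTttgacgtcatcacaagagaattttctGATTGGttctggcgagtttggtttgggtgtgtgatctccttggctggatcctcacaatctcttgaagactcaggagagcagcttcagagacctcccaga
H2-Eb1 (chr17:34305617-34305916, plus strand): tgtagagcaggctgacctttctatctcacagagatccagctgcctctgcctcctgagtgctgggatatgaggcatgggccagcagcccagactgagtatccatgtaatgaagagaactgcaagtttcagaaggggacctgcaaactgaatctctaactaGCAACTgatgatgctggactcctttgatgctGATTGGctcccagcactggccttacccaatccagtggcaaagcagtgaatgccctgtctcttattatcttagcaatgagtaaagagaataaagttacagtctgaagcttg
H2-DMb1 (chr17:34152941-34153240, plus strand): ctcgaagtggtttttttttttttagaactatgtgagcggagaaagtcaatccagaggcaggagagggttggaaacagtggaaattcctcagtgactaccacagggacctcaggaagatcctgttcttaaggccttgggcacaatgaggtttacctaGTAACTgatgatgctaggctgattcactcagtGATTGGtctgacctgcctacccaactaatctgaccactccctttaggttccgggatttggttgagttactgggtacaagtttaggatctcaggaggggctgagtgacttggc
The letters and the spacing were chosen with these sequences in view. On both strands, GNAACT stood in 42.8% of 32851 RefSeq promoters of the same length and GATTGG in 16.1%. GNAACT followed by GATTGG with 20 to 30 bases between stood in 67 promoters (0.204%), H2-Eb2 among them, while neither entry of H2-DMa held that arrangement. A match of letters is a description and not a binding site.

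The share of probes detected above negative controls (detection p-value under 0.05) was 38.1 to 49.6% of probes on control arrays and 28.9 to 50.3% on ISO arrays. The arrays came from 26 BeadChips, numbered here in the order of their identifiers in 3 sets (chips 1 to 6, 7 to 20 and 21 to 26), and a strain's control and ISO arrays usually shared a BeadChip. Several strain labels could not be taken as settled. Arrays of the same strain and condition on other BeadChips often differed in their pattern of H2-Ab1 ILMN_1226525 and H2-Ea, a further class II gene, as described below. Results were therefore also computed without BeadChips 12, 19, 23 and 24, chosen with results of these data known, which left 10 of the 22 pairs of such arrays. The labeled tissue was checked against its markers: the summed level of 7 cardiomyocyte genes, 6 of them detected on 100% of arrays, was 16.7 to 17.2 (log2) in control strains and 16.5 to 17.1 in ISO strains.

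In control hearts, class II genes were expressed at levels that differed widely between strains. Cd74 (chr18:60803849-60812652, probe ILMN_1221817) ran from 7.49 in AXB-4/PgnJ through a median of 10.1 to 12.2 in BXD-14/TyJ (log2 intensity, mean 10.0 ± 0.80, SD, n = 93), a range of 4.76 log2 units. The second Cd74 probe, ILMN_3089584, ran from 7.18 in AXB-4/PgnJ through 9.93 to 12.2 in BXD-14/TyJ. The lowest and the highest strain were thus the same at both Cd74 probes, which lay on the same arrays. H2-Eb1 ran from 5.32 in BXD-34/TyJ through 9.16 to 11.5 in BXD-14/TyJ (mean 8.98 ± 1.10, SD, n = 93). The BXD-34/TyJ array was on BeadChip 12, which was among those left out above. H2-DMa ran from 4.45 in AXB-4/PgnJ through 7.38 to 9.43 in BXD-14/TyJ, and 5 strains lay below a gap of 0.62 that separated them from the other 88. H2-DMb1 ran from 5.16 in LP/J through 6.65 to 8.92 in BXD-14/TyJ (mean 6.63 ± 0.72, SD, n = 93). BXD-14/TyJ, represented by 1 control array, was the highest control strain at 9 of the 11 probes, and the exceptions were H2-Aa and H2-Ab1 ILMN_1226525.

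Ciita (chr16:10480014-10531064), the switch of the set, was close to background in most hearts: it was detected on 17.9% of control arrays and 17.6% of ISO arrays. Its control values ran from 4.44 through 4.69 to 6.86, again highest in BXD-14/TyJ. H2-Aa was detected on 47.2% of control arrays and 50.98% of ISO arrays, with control values from 4.38 through 5.15 to 8.45. Strains at the low end of these probes therefore have only an upper bound.

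The SD between control strains of 10 of the 11 probes exceeded that of at least 94.2% of all gene probes, with H2-Ab1 ILMN_1226525 (SD 2.28) above 99.9%. Ciita was the exception, above 67.6% of probes.

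**Figure D1:**
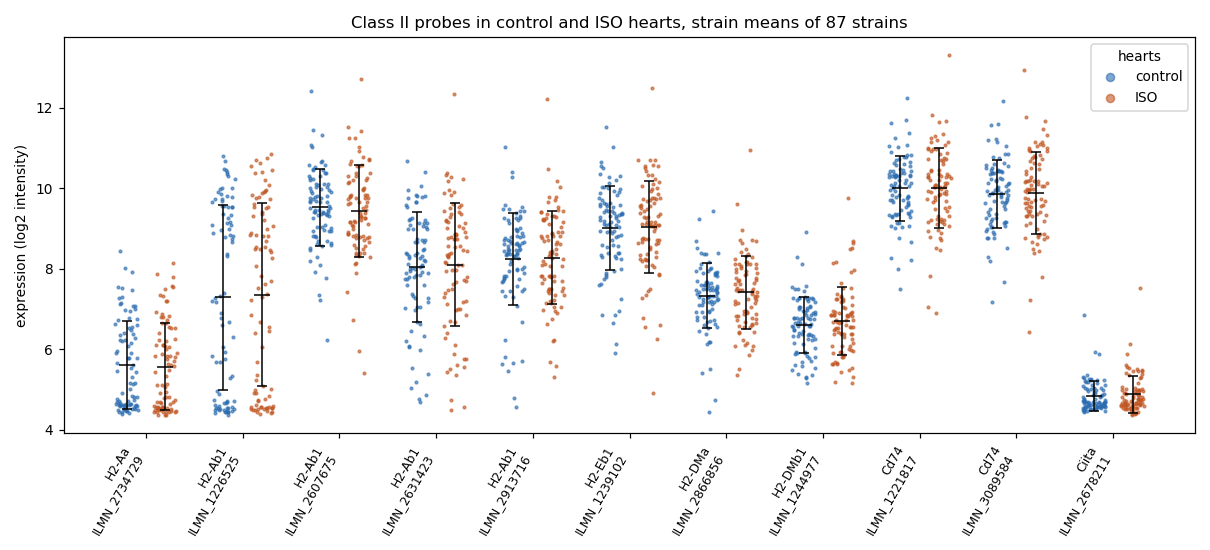
Expression (log2 intensity, y axis) of the 11 class II probes (x axis) in control and ISO hearts; points are means of 87 strains measured in both conditions, bars the mean and SD. The columns of control and ISO points overlap at every probe, and at H2-Ab1 ILMN_1226525 strains gather at both ends of the range in both conditions.

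The main comparison asked whether 3 weeks of ISO changed these genes across the panel. None of the 11 class II probes rose or fell, while 1863 of 25697 probes (7.25%) were called, 957 of them higher (3.72%) and 906 lower (3.53%) in ISO hearts, by limma with strain as a block, a Benjamini-Hochberg adjusted p under 0.05 over all probes and a change over 0.2 (log2, 14.9%). At an unadjusted p under 0.05, 0 of the 11 passed against 6454 of all probes. The 11 mean differences lay between -0.10 and 0.10, 9 of them above 0, with a median of 0.03 against -0.002 over all probes.

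Among the chains, H2-Aa was 5.61 ± 1.10 in control and 5.57 ± 1.07 in ISO hearts (SD, n = 87 strains), a difference of -0.04 (SE 0.08, 95% interval -0.21 to 0.12, limma adjusted p = 0.818), and it was higher with ISO in 37 of 87 strains. H2-Eb1 was 9.01 ± 1.05 and 9.04 ± 1.15, a difference of 0.03 (SE 0.13, -0.23 to 0.28, limma adjusted p = 0.937), higher in 46 strains. Strains were thus split close to evenly for both chains. The 4 H2-Ab1 probes differed by 0.06 (ILMN_1226525), -0.10 (ILMN_2607675), 0.06 (ILMN_2631423) and 0.03 (ILMN_2913716), with limma adjusted p-values of 0.863, 0.685, 0.872 and 0.930.

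Among the genes that load peptide, Cd74 ILMN_1221817 was 10.0 ± 0.81 in control and 10.0 ± 0.9998 in ISO hearts (SD, n = 87), a difference of 0.01 (SE 0.11, -0.22 to 0.23, limma adjusted p = 0.987), and 49 of 87 strains were higher. H2-DMb1 had the smallest p-value of the set and a difference of 0.10 (SE 0.10, -0.09 to 0.28, limma adjusted p = 0.612). H2-DMa differed by 0.09 (SE 0.10, limma adjusted p = 0.639). Ciita differed by 0.05 (SE 0.05, limma adjusted p = 0.647), with most strains near background. The intervals do not show that the genes were unchanged: for Cd74 ILMN_1221817 the interval ran from -14.2% to 17.4%, and for H2-Ab1 ILMN_2631423 from -15.4% to 28.3%.

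A mean near 0 went with large differences of single strains in both directions. The SD of the ISO minus control difference had a median of 1.08 over the 11 probes against 0.341 over all probes, and 10 of the 11 exceeded at least 95.3% of all probes. Ciita exceeded 78.9%. All 11 probes were higher with ISO in 9 strains and all 11 lower in 12 strains, with the probes of a strain read on the same arrays. Of the 87 strains, 25 differed by over 1 log2 unit at Cd74 ILMN_1221817 and 39 at H2-Ab1 ILMN_2631423.

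BXA-8/PgnJ had the largest rise of Cd74, from 8.26 to 11.7, and H2-Ab1 ILMN_2607675 went from 7.21 to 11.4 and H2-Eb1 from 6.86 to 10.5 in the same hearts. Its control and ISO arrays also differed in the strain pattern described below. In AXB10/PgnJ, Cd74 went from 10.3 to 13.3, H2-DMa from 8.11 to 10.9 and Ciita from 5.03 to 7.51, and this strain was the highest ISO strain at 9 of the 11 probes, the same 9 as for BXD-14/TyJ in control hearts. Both H2-Aa (7.55 to 5.75) and H2-Ab1 ILMN_1226525 (10.0 to 6.44) moved the opposite way in AXB10/PgnJ. The control and ISO arrays of AXB10/PgnJ thus also differed in the strain pattern described below, with H2-Ea low on both (5.24 and 5.13). The macrophage marker sum of that strain went from 12.9 to 14.4 (log2) and the T cell marker sum from 7.88 to 9.05. In NON/LtJ, Cd74 went from 8.67 to 10.97 and the macrophage sum from 12.7 to 14.5. Whether macrophage number contributed to these rises was not tested, and in bulk tissue more cells of a type and more RNA per cell cannot be told apart.

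The largest falls were of similar size. Cd74 went from 10.4 to 7.04 in CXB-12/HiAJ, where H2-Eb1 went from 9.57 to 6.24 and the macrophage sum from 12.3 to 11.8. In KK/HlJ, Cd74 went from 10.6 to 7.83, H2-Ab1 ILMN_2913716 from 8.90 to 5.30 and H2-DMa from 7.59 to 5.35, beside a macrophage sum of 12.04 and 12.27. In AXB-20/PgnJ, Cd74 went from 9.02 to 6.91, the lowest ISO value, while the macrophage sum went from 12.6 to 13.4. Class II and macrophage levels thus moved in opposite directions in the last 2 of these strains. NOD/LtJ went from 10.5 to 8.46, and its ISO value averages 9.34 on BeadChip 2 and 7.58 on BeadChip 23. The array on BeadChip 2 detected 28.9% of probes, the lowest share of the ISO arrays, and was among the arrays of low connectivity described below. BXD-14/TyJ went from 12.2 to 10.97 at Cd74 and from 12.4 to 10.7 at H2-Ab1 ILMN_2607675, with a macrophage sum of 13.2 and 13.4. Each of these values rests on 1 array per condition unless stated. The control and ISO arrays of CXB-12/HiAJ, KK/HlJ and AXB-20/PgnJ also differed in the strain pattern described below. KK/HlJ was read on BeadChip 19, which was among those left out above.

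The lower end of the control range rested partly on arrays that stood apart. The control arrays of AXB-4/PgnJ and AXB-6/PgnJ were among 5 arrays whose correlation with the other arrays was low (connectivity z-score under -2.5). Their Cd74 levels were 7.49 and 8.00, H2-DMa 4.45 and 4.73, and H2-Ab1 ILMN_2913716 4.56 and 4.79, beside macrophage sums of 10.88 and 10.95 against a control median of 12.5. Their dendritic cell marker sums, 10.2 and 10.4, lay at the high end instead, against a control median of 9.30. Without the 5 arrays, 4 of the 11 mean differences were above 0, the median was -0.01, and 0 probes were called.

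The differences also moved with the BeadChip set. In the 24 strains of set 1, 11 of 11 class II probes had a positive mean difference (median 0.22, lowest limma adjusted p = 0.310). In the 52 strains of set 2, 1 of 11 was positive (median -0.14, lowest limma adjusted p = 0.171). In the 16 strains of set 3, 8 of 11 were positive (median 0.08, lowest limma adjusted p = 0.610). No set had a called class II probe. The sets hold mostly different strains, and the difference between sets was not tested. The 5 strains with control and ISO arrays in several sets included AXB-8/PgnJ, BXD-32/TyJ and DBA/2J, whose patterns differed between BeadChips in both conditions. Their Cd74 ILMN_1221817 differences were 0.74 in set 1 and -1.47 in set 2 for BXD-32/TyJ, 1.21 and 0.76 for BXD-40/TyJ, -0.95 and -1.50 for C57BL/6J, and -1.20 and 0.01 for DBA/2J. AXB-8/PgnJ had 1.18 in set 1 and -0.30 in set 3. The difference was thus lower in the later set in 4 of the 5 strains and higher in DBA/2J.

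**Figure D2:**
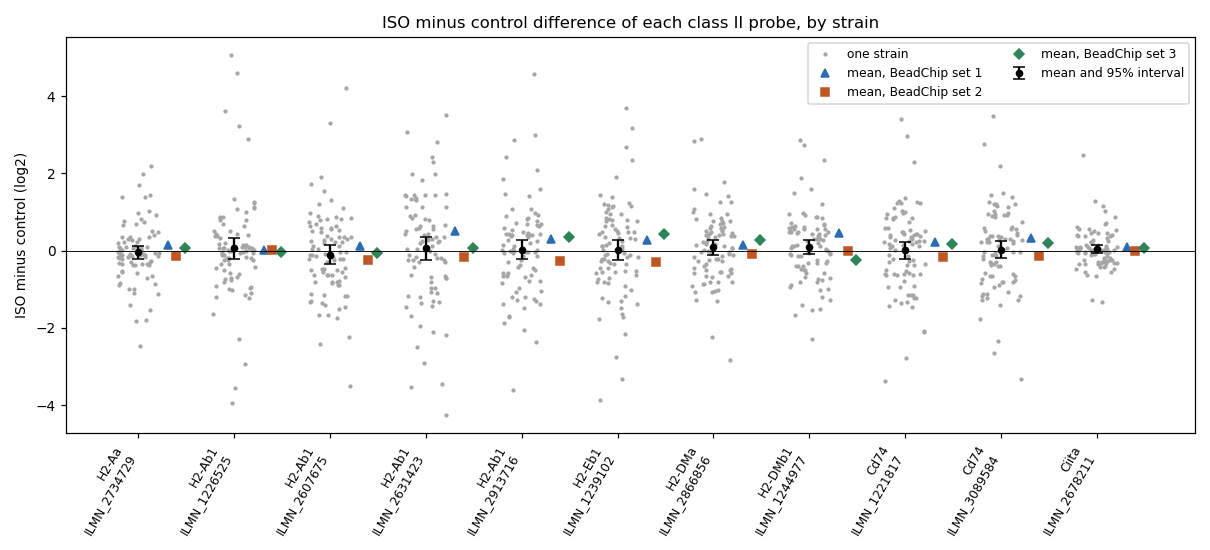
ISO minus control difference (log2, y axis) of the 11 class II probes (x axis); gray points are 87 strains, black points the mean with its 95% interval, and colored symbols the means in the 3 BeadChip sets. Every black interval includes 0 while single strains reach beyond 3 log2 units in both directions, and the means of set 2 lie below those of set 1 at 10 of the 11 probes.

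The 4 H2-Ab1 probes gave different pictures of the same beta chain gene. All are assigned to the transcript NM_207105, but ILMN_1226525 had a Pearson r across 93 control strains of -0.12 with ILMN_2607675, 0.41 with ILMN_2631423 and 0.09 with ILMN_2913716. The other 3 probes correlated with one another at 0.62 to 0.79. ILMN_2607675 was detected on all 208 arrays, ILMN_1226525 on 65.1% of control and 62.7% of ISO arrays. Whether sequence differences between strains under the probes contribute was not tested, as probe sequences were not used here.

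ILMN_1226525 divided the strains into low and high ones. Its control values ran from 4.37 in BXD74/RwwJ through 7.28 to 10.8 in BXD-24/TyJ, with a lower quartile of 4.69 and an upper quartile of 9.54. The widest gap, from 7.41 to 8.33, left 50 strains below and 43 above, and 48 and 45 ISO strains fell on the same sides. Of the 87 strains, 74 were on the same side of 7.87, the middle of the gap, in both conditions, 7 went from low to high and 6 from high to low. Sides were read from strain means, which in some strains averaged a low and a high array. BXD-32/TyJ, for example, counted as low in control hearts at 7.21, from arrays at 9.71 and 4.71. The gap of 0.92 did not reach the 1 log2 unit, with at least 5 strains on each side, that 35 of 25697 probes (0.136%) reached and 0 class II probes reached. With a minimum of 0.5, ILMN_1226525 and H2-DMa passed, beside 309 probes in all (1.20%).

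H2-Ea, the alpha chain of the E molecule, is no member of the set and was brought in after its values were seen. The gene is annotated as a transcribed pseudogene at chr17:34341952-34344645 in the reference, which is C57BL/6J, a strain known to lack the E alpha chain. H2-Ea ran from 4.35 in CXB-3/ByJ through 5.51 to 12.9 in BXD-14/TyJ, with 62 control strains below and 31 above a gap of 0.82, and 81 of 87 strains on the same side in both conditions. Across control strains it ran opposite to H2-Ab1 ILMN_1226525 (r = -0.87, n = 93) and H2-Aa (r = -0.64), while H2-Aa ran with H2-Ab1 ILMN_1226525 (r = 0.79). The points share arrays, and the 3 genes lie near each other on chromosome 17.

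Split at the middle of both gaps (7.87 and 8.37), 50 control arrays were high for H2-Ab1 ILMN_1226525 and low for H2-Ea, 35 the reverse, 21 low for both and 0 high for both. Low here means below the middle, and arrays low for both included intermediate ones, such as the AXB-12/PgnJ control array (7.03 and 7.48). On ISO arrays the counts were 51, 33, 17 and 1, the last being BXA-14/PgnJ. In the BXD family, 21 of 40 control arrays were high for H2-Ab1 only, 15 high for H2-Ea only and 4 low for both, and the ISO counts were 21, 13 and 4 of 38. In AXB/BXA, the control counts were 8, 6 and 9 of 23. Both patterns thus occurred in every RI family and among the classical strains (15, 11 and 6 of 32 control arrays).

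**Figure D3:**
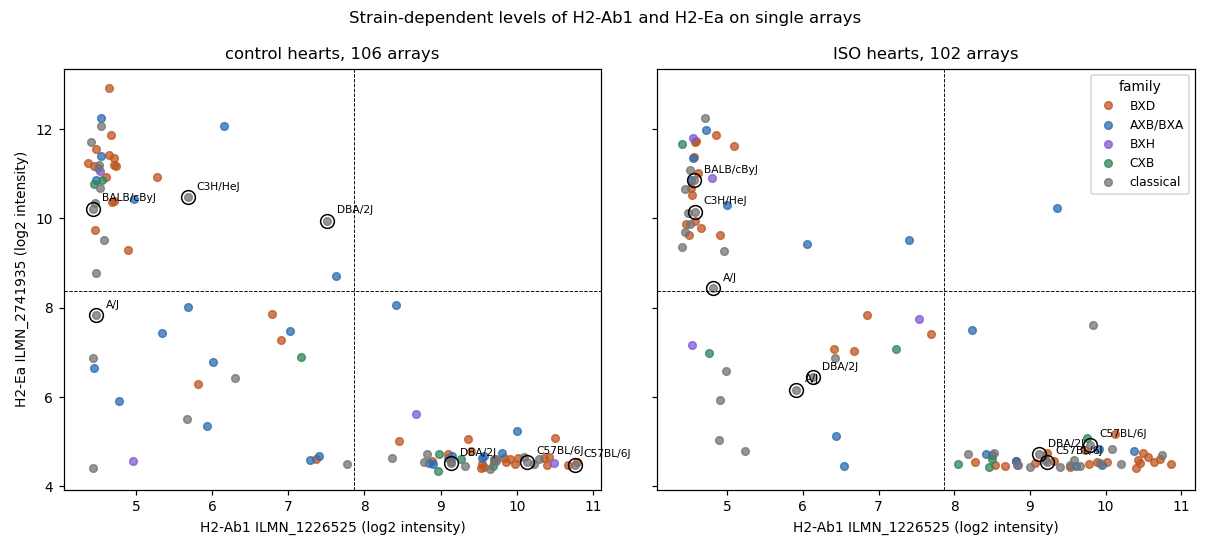
H2-Ab1 ILMN_1226525 (log2 intensity, x axis) against H2-Ea (log2 intensity, y axis) on the control and the ISO arrays, colored by family, with circled arrays of RI parents and dashed lines at the middles of the gaps. The points gather at the upper left and the lower right, the upper right quadrant is empty in control hearts and holds 1 ISO array.

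The parents of the RI families held both patterns. The 4 C57BL/6J arrays had H2-Ab1 ILMN_1226525 at 9.22 to 10.8, H2-Aa at 6.21 to 7.55 and H2-Ea at 4.48 to 4.93. BALB/cByJ was the reverse, with H2-Ab1 ILMN_1226525 at 4.44 in control and 4.57 in ISO hearts and H2-Ea at 10.2 and 10.9. C3H/HeJ likewise had 5.68 and 4.57 for H2-Ab1 ILMN_1226525 and 10.5 and 10.1 for H2-Ea. On BeadChip 5, A/J was low for H2-Ab1 ILMN_1226525 (4.48 control, 4.82 ISO) but not for H2-Aa (6.35 and 7.21), and its H2-Ea lay near the dividing value (7.83 and 8.43). Its other ISO array, on BeadChip 25, had H2-Aa at 4.46, H2-Ab1 ILMN_1226525 at 5.91 and H2-Ea at 6.17, so H2-Aa was near background there. DBA/2J had opposite patterns on its 2 BeadChips: on BeadChip 1 the control array had H2-Ab1 ILMN_1226525 at 7.51 and H2-Ea at 9.94, and on BeadChip 19 they were 9.14 and 4.51. The ISO array on BeadChip 1 was low for both (6.13 and 6.45).

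Other strains stood out at single probes. AKR/J had the lowest H2-Ab1 ILMN_2607675 in both conditions, 6.22 in control and 5.40 in ISO hearts, while its Cd74 was 9.32 and 9.92. Its level was thus low at this H2-Ab1 probe and within the range of the other strains at Cd74. BXD21/TyJ, BXD62/RwwJ and BXD75/RwwJ lay below the dividing values of H2-Ab1 ILMN_1226525 and H2-Ea in both conditions, but at intermediate levels. On their 6 arrays, H2-Ab1 ILMN_1226525 was 5.82 to 7.70 and H2-Ea 6.30 to 7.87. H2-Ab1 ILMN_2631423 lay between 4.48 and 5.43 on the same arrays. H2-Eb1 was low in SJL/J (5.90 and 6.55) and, on BeadChip 1, in FVB/NJ (6.66 and 5.07), while the FVB/NJ array on BeadChip 23 had 9.48. It was also low in the control array of BXD-34/TyJ (5.32) and the ISO array of CXB-7/ByJ (4.92), whose control array had 8.79. BXD-34/TyJ was read on BeadChip 12 and CXB-7/ByJ on BeadChip 19, and both BeadChips were among those left out above.

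**Figure D4:**
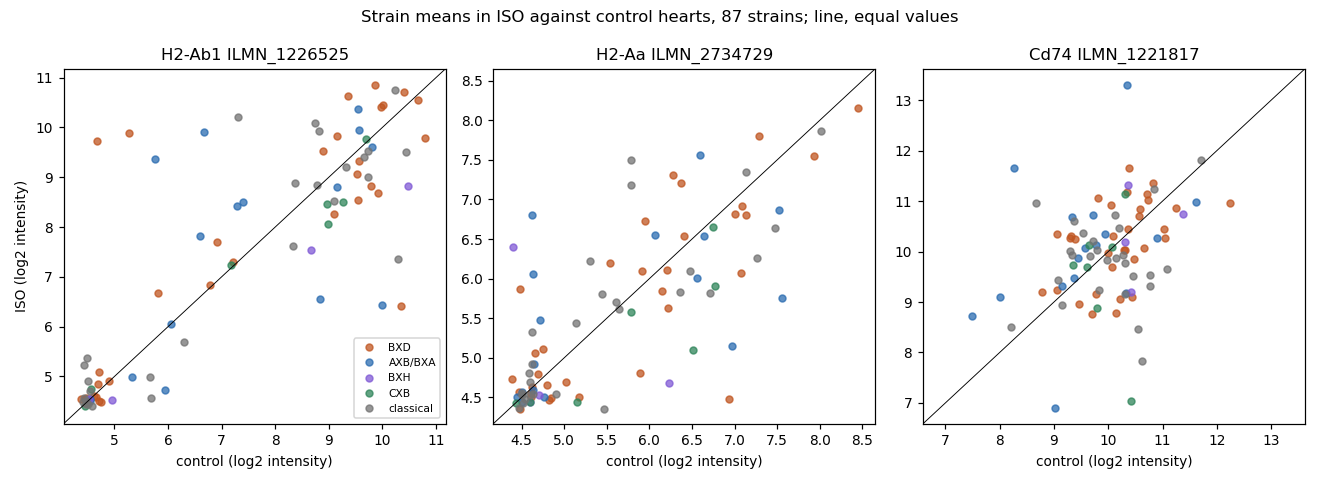
ISO (y axis) against control (x axis) strain means in log2 intensity for H2-Ab1 ILMN_1226525, H2-Aa and Cd74 ILMN_1221817 in 87 strains, colored by family, with the line of equal values. H2-Ab1 and H2-Aa strains gather along the line (r = 0.83 and 0.74) and Cd74 strains scatter widely around it (r = 0.31).

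The control level of a strain went with its ISO level to different degrees. Across 87 strains, r between control and ISO values was 0.83 for H2-Ab1 ILMN_1226525 and 0.74 for H2-Aa, 0.51 or lower for the other probes, 0.31 for Cd74 ILMN_1221817 and 0.27 for Ciita. In 87 of 87 strains the first control and ISO arrays shared a BeadChip, so strain and BeadChip are not separated in these values.

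Repeat arrays on other BeadChips show how far a strain label fixed the pattern. Control and ISO arrays of a strain on the same BeadChip fell in the same quadrant of H2-Ab1 ILMN_1226525 and H2-Ea in 77 of 92 pairs. Arrays of the same strain and condition on different BeadChips did so in 8 of 22 pairs, and arrays of the other condition on a different BeadChip in 9 of 22. Without BeadChips 12, 19, 23 and 24 the counts were 73 of 84, 5 of 10 and 6 of 10. H2-Ab1 ILMN_1226525 differed by over 2 log2 units in 7 of 92 pairs on the same BeadChip and in 8 of 22 pairs of the same condition on different ones. For Cd74 ILMN_1221817 these counts were 6 of 92 and 3 of 22.

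BXD-32/TyJ had H2-Ab1 ILMN_1226525 at 9.71 (control) and 10.0 (ISO) with low H2-Ea on BeadChip 4, and at 4.71 and 4.57 with H2-Ea at 11.4 and 9.94 on BeadChip 15. The 2 control arrays of BUB/BnJ had 10.1 on BeadChip 6 and 4.53 on BeadChip 12. Within a BeadChip, BXD-38/TyJ went from 4.67 in control to 9.73 in ISO hearts and H2-Ea from 11.9 to 4.81. BXD-20/TyJ went from 5.28 to 9.89 with H2-Ea from 10.9 to 4.55, and BXD-5/TyJ from 10.4 to 6.41 with H2-Ea from 4.64 to 7.08. Both genes changed side in BXD-38/TyJ and BXD-20/TyJ, while in BXD-5/TyJ H2-Ab1 ILMN_1226525 did and H2-Ea stayed below its dividing value. BXD-20/TyJ and BXD-5/TyJ were read on BeadChip 24, which was among those left out above. Whether labels, pools or hearts differ in these cases was not tested.

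The family comparison asked whether class II levels differed between the 5 families. None of the 11 probes passed in control hearts, where 175 of 25697 probes (0.681%) did, by limma's moderated F-test with a Benjamini-Hochberg adjusted p under 0.05, and 6 of the 11 had an unadjusted p under 0.05, as did 20.1% of all probes. H2-DMa had the smallest (p = 0.00311, limma adjusted p = 0.103): its mean was 6.73 ± 1.22 in AXB/BXA (SD, n = 18) and 7.45 ± 0.57 in BXD (SD, n = 37). AXB/BXA holds the AXB-4/PgnJ and AXB-6/PgnJ arrays described above. In ISO hearts, 0 of the 11 passed against 63 of all probes (0.245%), 1 had an unadjusted p under 0.05 (3604 of all probes), and H2-Eb1 had the smallest adjusted value (limma adjusted p = 0.270).

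The ISO response differed between families at 0 of the 11 probes and at 0 of all probes (0%) by the same limma test, and 3 of the 11 had an unadjusted p under 0.05, as did 8.46% of all probes. H2-Ab1 ILMN_2631423 had the smallest (p = 0.00143, limma adjusted p = 0.227). Its ISO minus control difference was 1.02 ± 1.39 in AXB/BXA (SD, n = 16), -0.02 ± 1.10 in BXD (SD, n = 33) and -2.01 ± 2.26 in BXH (SD, n = 4). These family spreads overlapped. The BXH strains were BXH-6/TyJ (-4.26), BXH-9/TyJ (-3.45), BXHB2 (-0.98) and BXH-19/TyJ (0.64). Of these, BXH-6/TyJ and BXH-9/TyJ were read on BeadChip 24, which was among those left out above. Without BeadChips 12, 19, 23 and 24, the lowest limma adjusted p of the 11 probes was 0.82, at H2-Ab1 ILMN_2913716.

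Apart from the strain-divided probes, the class II genes rose and fell together across strains. Cd74 ILMN_1221817 had a Pearson r across 93 control strains of 0.865 with H2-Ab1 ILMN_2607675, 0.82 with H2-DMa, 0.65 with H2-Eb1, 0.55 with H2-DMb1 and 0.49 with Ciita, but -0.01 with H2-Ab1 ILMN_1226525 and 0.13 with H2-Aa. The ISO minus control differences of 87 strains behaved alike, with r between Cd74 ILMN_1221817 and H2-Ab1 ILMN_2607675 of 0.92 and with H2-DMa of 0.89. All values of a strain come from the same arrays.

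Over all named genes outside the same gene, those nearest to Cd74 in control strains were H2-Ab1 (r = 0.865), H2-DMa (0.82), Ly86 (0.72), which encodes the partner of a Toll-like receptor homolog, B2m (0.68), the light chain of class I molecules, and the nonclassical class I gene H2-M3 (0.66). Of these, Ly86 and B2m had an r with Cd74 of 0.62 and 0.56 in 93 ISO strains. H2-Aa had other neighbors: Wdr46 (0.81), a nucleolar protein gene, H2-Ab1 ILMN_1226525 (0.79), Psmb9 (0.72), an immunoproteasome subunit, Abhd16a (0.715) and Zbtb22 (0.67). The nearest genes to H2-Ab1 ILMN_2607675 were Cd74 (0.88), H2-DMa (0.73), H2-M3 (0.695), H2-DMb1 (0.65) and the interferon-induced GTPase gene Gbp2 (0.63). Those of H2-Eb1 were H2-Ab1 (0.77), Cd74 (0.65), H2-DMa (0.63), the nonclassical class I gene H2-T23 (0.61) and the growth factor gene Fgf1 (0.60), whose r with H2-Eb1 in ISO strains was 0.25.

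**Figure D5:**
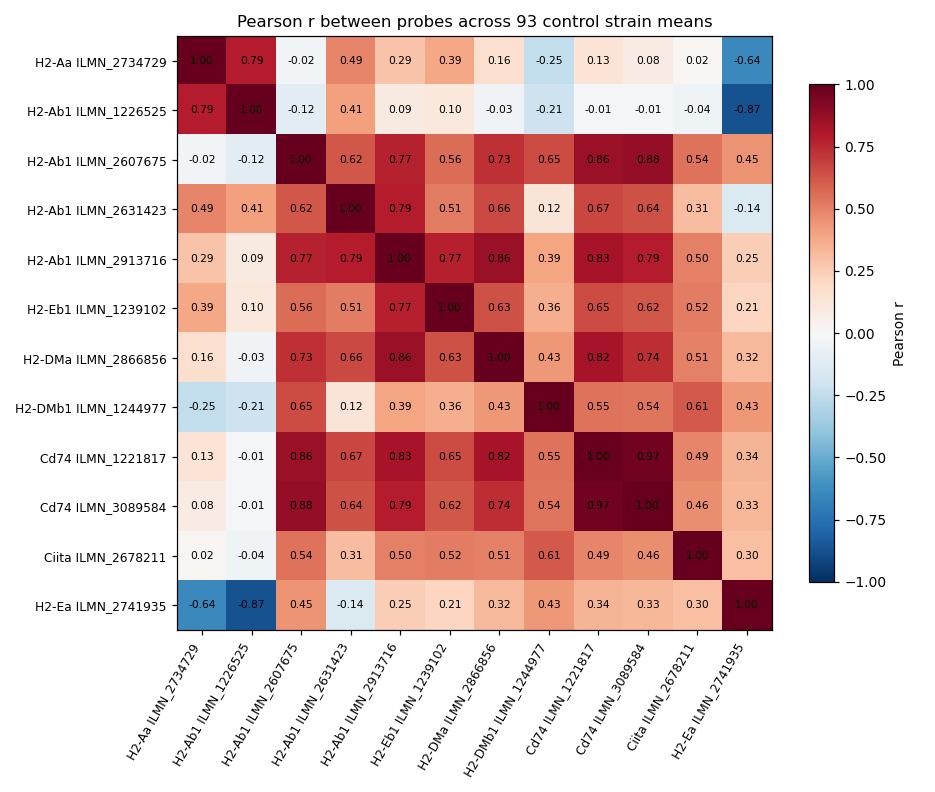
Pearson r between the 11 class II probes and H2-Ea (both axes) across 93 control strain means, blue below 0 and red above 0. H2-Aa and H2-Ab1 ILMN_1226525 form a pair of their own (r = 0.79) opposite to H2-Ea, and the Cd74, H2-DMa, H2-Eb1 and other H2-Ab1 probes form a block.

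Cells that carry class II molecules were read through marker lists. Of 11 measured macrophage markers, 7 rose with ISO and 0 fell (median 0.31), among them Lyz2, the lysozyme of myeloid cells (0.82, SE 0.12, limma adjusted p = 6.7e-08), Mrc1, the mannose receptor (0.40, limma adjusted p = 3.0e-07), C1qc, a complement chain (0.37, limma adjusted p = 1.0e-06) and Cd14, the lipopolysaccharide coreceptor (0.41, limma adjusted p = 4.7e-06). Their summed level ran from 10.9 through 12.5 to 14.03 (log2) in control and from 11.6 through 12.9 to 14.7 in ISO strains. Beside these, 0 of the 7 class II genes were called, and the difference between both lists was not tested. Across strains, the mean of the 9 macrophage markers detected on most arrays had an r with Cd74 ILMN_1221817 of 0.44 in control hearts, 0.52 in ISO hearts and 0.55 for the differences. Over the 11 probes, r in control hearts ran from -0.03 (H2-Ab1 ILMN_1226525) to 0.51 (H2-DMa), with H2-Aa at -0.01 and H2-Eb1 at 0.19.

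Of 11 B cell markers, 0 rose and 0 fell, with Fcer2a, a low-affinity IgE receptor, at -0.18 (limma adjusted p = 0.0184) and Blnk, a B cell receptor adaptor, at 0.08 (limma adjusted p = 0.103). Detection differed between B cell genes. Cd79a was detected on 1.92% of arrays, Ms4a1 on 0.962% and Pax5 on 0.481%, so these were at or near background. The 3 markers of the list detected on most arrays were Ebf1 (73.6%), Fcer2a (72.6%) and Cd79b (55.8%). The sum of the list ran from 8.12 to 8.84 in control and from 8.04 to 10.5 in ISO strains. Of 11 dendritic cell markers, 0 rose and 2 fell, Siglech of plasmacytoid dendritic cells (-0.30, limma adjusted p = 0.00186) and the actin-bundling gene Fscn1 (-0.27, limma adjusted p = 0.00340), which other cells also express. Itgax, Clec9a and Cd209a of this list were detected on 0% of arrays. The sum of the list ran from 8.77 to 10.4 in control and from 8.79 to 10.0 in ISO strains. Of 9 T cell markers, 0 rose and 1 fell, the costimulatory receptor Cd28 (-0.22, limma adjusted p = 0.00856), and Cd4 was detected on 0.481% of arrays. The means of the 3 B cell and 2 dendritic cell markers detected on most arrays had r values with Cd74 ILMN_1221817 of 0.06 and -0.20 in control hearts, 0.08 and 0.22 in ISO hearts and -0.07 and 0.01 for the differences. The dendritic cell value of Cd74 thus changed sign between conditions. That of H2-DMb1 was 0.375, 0.404 and 0.329 in control hearts, ISO hearts and the differences, and that of H2-Ab1 ILMN_2631423 was -0.379, -0.165 and -0.175. Of 7 cardiomyocyte markers, 0 passed both thresholds, with Myh6, the main myosin heavy chain, at -0.10 (limma adjusted p = 0.0121) and Pln, the inhibitor of the calcium pump, at -0.18 (limma adjusted p = 0.0389).

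Of 38 measured genes in 5 further lists of the pathway, 3 rose and 3 fell (15.8% called, against 7.25% of all probes). Among the 11735 probes detected on most arrays, tested alone, 942 rose and 906 fell, a larger share than of all probes. The lists were not matched to all probes by detection, so the shares show no excess of called genes in the lists. Of 5 further class II chains, 0 rose and 0 fell, with H2-Eb2 at 0.05 (limma adjusted p = 0.531) and H2-DMb2 at 0.02 (limma adjusted p = 0.741). H2-Oa and H2-DMb2 were detected on 1.44% of arrays each. Of 11 transcription factors of class II genes, 0 passed both thresholds. The RFX subunit gene Rfxap (-0.13, limma adjusted p = 3.5e-07) and the NF-Y subunit gene Nfyc (-0.17, limma adjusted p = 4.7e-06) had the smallest p-values and stayed under the 0.2 threshold. Of 7 genes of interferon-gamma signaling, 1 fell, the receptor chain gene Ifngr2 (-0.41, SE 0.05, lower in 77 of 87 strains, limma adjusted p = 3.4e-09), and 0 rose, while Ifng itself was detected on 0% of arrays.

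Of 10 genes of endosomal processing, 2 rose and 0 fell. Lgmn, the asparaginyl endopeptidase of lysosomes, rose by 0.34 (SE 0.06, higher in 71 of 87 strains, limma adjusted p = 5.9e-06) and the cathepsin gene Ctsz by 0.24 (SE 0.07, limma adjusted p = 0.0174). Of 5 genes of costimulation, 1 rose, Cd80, a ligand of Cd28 (0.31, limma adjusted p = 5.6e-06, detected on 33.7% of arrays). The other 2 called genes fell: Cd40, which receives T cell help (-0.23, limma adjusted p = 2.9e-05), and Cd274, the inhibitory ligand PD-L1 (-0.34, limma adjusted p = 0.00925).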

How the data were processed

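LV RNA was hybridized to Illumina MouseRef-8 v2.0 arrays. The deposited intensity values per probe were exported by the authors from GenomeStudio 2010.3 without background correction. The deposited detection p-values compare a probe with the negative controls of its array. For the deposited log2 values the authors used limma's neqc (background correction, quantile normalization and log2). Here the intensities of 25697 gene probes were normalized with neqc (limma 3.58.1, R 4.3.3, offset 16), which differed from the deposited values by a median of 0.00057. The 829 control probes were not used. No column belonged to a sample of another series. Probe symbols come from the platform annotation (23978 probes with 1 symbol, 1719 not listed). The study's methods leave out probes over known SNPs, which are not listed in the sources used here, so all probes were kept.

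Arrays of a strain and condition were averaged. ISO was compared with control by limma with strain as a block, and families by limma's moderated F-test, both adjusted by Benjamini-Hochberg over all probes and tested on simulated data. The pairing comes from the strain in the labels. Deviations of control and ISO values of a strain had a median correlation of 0.478, over 0.1 in 80 of 87 strains, against -0.0195 between strains. The first control and ISO arrays shared a BeadChip in 87 of 87 strains. These correlations therefore cannot tell strain from BeadChip and do not settle the labels. A marker sum is log2 of the summed linear levels of a list. The text names every class II probe and, of each other list, up to 4 called genes with the smallest p-values (2 where none was called). It also names the 5 nearest genes of 4 class II probes. Detection shares of single markers and strains with extreme values were chosen after seeing them. Members and lists were chosen with earlier results of these data known. Alternatives covered the normalization, filters, arrays, BeadChips and the block. The number of arrays limits the precision.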

Additional observations from a re-analysis of the deposited data

Results flagged for a closer look

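In families of 4 to 7 strains, 7 of 44 combinations of probe, family and condition had a strain far from the others. Chance gives about 1 in 20 where values follow 1 normal distribution, which was not checked for these probes. In control BXH strains (n = 4), BXHB2 had H2-Aa at 6.23, with the next strain at 4.71 and the lowest at 4.4. BXH-6/TyJ had Cd74 ILMN_1221817 at 11.4 (next 10.4, lowest 10.3) and Cd74 ILMN_3089584 at 11.6 (next 10.6, lowest 10.4). In control CXB strains (n = 7), CXB-13/HiAJ was low, with H2-Ab1 ILMN_2631423 at 5.54 (next 7.74, highest 8.67) and H2-Ab1 ILMN_2913716 at 5.71 (next 7.81, highest 8.98). In ISO hearts, BXH-9/TyJ had H2-Aa at 6.40 (next 4.68, lowest 4.45, n = 5). CXB-11/HiAJ had H2-DMa at 8.73 in ISO hearts (next 7.21, lowest 6.11, n = 7). All 11 probes are read on the same arrays, and some lie near background. H2-Aa also ran with the strain-divided H2-Ab1 ILMN_1226525. The BXH-6/TyJ and BXH-9/TyJ arrays were on BeadChip 24, which was among those left out above.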

How the results depend on the processing

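Under 14 alternatives, 0 class II probes rose and 0 fell with ISO. The alternatives were deposited log2 values, no background correction, median scaling, only the 11735 probes detected on most arrays, the first array of each strain, pairs on the same BeadChip, single arrays with strain and BeadChip blocks, no replicate block, arrays or BeadChips left out, each BeadChip set alone and no fold threshold. The first arrays and the pairs on the same BeadChip were the same arrays. Of the class II differences, 24 changed sign, each of them below the threshold before and after, and the cause was not tested. Without the replicate block that pairs the strains, H2-Aa was 0.0028, and 793 probes rose and 753 fell. With median scaling, H2-Ab1 ILMN_2913716 was -0.014 and Cd74 ILMN_1221817 -0.017. With strain and BeadChip blocks, H2-Ab1 ILMN_2913716 was -0.011, H2-Eb1 -0.013 and Cd74 ILMN_1221817 -0.0025. Without 5 arrays of low connectivity, H2-Ab1 ILMN_2631423 was -0.019, H2-Ab1 ILMN_2913716 -0.058, H2-Eb1 -0.014, Cd74 ILMN_1221817 -0.019 and Cd74 ILMN_3089584 -0.0032. In BeadChip set 1, H2-Aa was 0.14 and H2-Ab1 ILMN_2607675 0.12. In set 2, H2-Ab1 ILMN_2631423 was -0.17, H2-Ab1 ILMN_2913716 -0.26, H2-Eb1 -0.28, H2-DMa -0.079, H2-DMb1 -0.0094, Cd74 ILMN_1221817 -0.16, Cd74 ILMN_3089584 -0.14 and Ciita -0.0079. In set 3, H2-Aa was 0.077, H2-Ab1 ILMN_1226525 -0.047 and H2-DMb1 -0.24.

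Counts over all probes moved more. Against 957 higher and 906 lower, no background correction gave 449 and 334, no fold threshold 1722 and 2170, BeadChip set 1 alone 275 and 276 and set 3 alone 4 and 2. Family differences in control hearts (175 probes) became 71 with median scaling, 730 without BeadChips 12, 19, 23 and 24, and 1 with RI families only or with the BeadChip set as a covariate. In ISO hearts (63 probes) they became 27 without background correction, 4 with median scaling, 97 without the 4 BeadChips, 35 with RI families only and 0 with the set as a covariate. In the response (0 probes) they became 41 without the 4 BeadChips and 1 with the set as a covariate. No class II probe passed in any of these. The number of class II probes with a gap went from 0 to 2 at a minimum of 0.5. Over all probes it went from 35 to 309, to 10 without background correction and to 77 with the first array of each strain, chosen after seeing the data. The gap of H2-Ab1 ILMN_1226525 was 0.35 without background correction and 0.73 without the 4 BeadChips. Signals near background limit H2-Aa, Ciita and the low side of H2-Ab1 ILMN_1226525 to upper bounds.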
